A study of Mus musculus with 100 samples.

Results

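Whole knee joints of uninjured STR/ort and C57BL/6 mice were compared at the time point labelled 0-day. The members were the 4 STR/ort and the 4 C57BL/6 libraries that the labels give as uninjured, 0-day knee joints of mice 10 weeks old, 8 of the 100 libraries of the series. None of these mice had been injured, and all 8 libraries belong to experimental batch 1. STR/ort is an inbred strain known for osteoarthritis that arises without injury, C57BL/6 is the common inbred laboratory strain (the study's methods name C57BL/6J), and the third strain of the series, MRL/MpJ, is known for healing and enters here only as a further reference. The later libraries used beside them came from the uninjured contralateral knee of other mice, whose right knee had been injured by a compressive load, and were taken at 1-day and 1-week (batch 1) and 2-weeks (batch 2), with 4 or 5 libraries per strain and time. Libraries of injured right knees taken at these times enter the gene filter and the scaling of the levels given per library. Otherwise they are used only in the counts of genes seen in a single strain. The comparison asks which genes differ between a strain prone to osteoarthritis and C57BL/6 before any injury.

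The knee joint joins cartilage, which carries load through aggrecan and type II collagen, with bone, marrow, ligament, fat, the synovial lining that makes lubricin and hyaluronan, and the skeletal muscle attached at its edges. The sample was the whole joint together with the adjoining bone ends, and some soft tissue remained on it, so that 1 library can hold RNA of all of these tissues. In such bulk samples, fewer cells of a type and less RNA per cell cannot be told apart. The 6 genes chosen to check the tissue were present in all 8 libraries: across them Acan ranged from 275 to 644 CPM, Col2a1 from 1359 to 4310 CPM, Comp from 336 to 703 CPM, Prg4 from 1485 to 6101 CPM, Col1a1 from 5817 to 13194 CPM and Bglap from 294 to 840 CPM. CPM are a gene's counts relative to the library's total, put on a per-million scale and adjusted by TMM factors.

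The 4 STR/ort libraries held 8805390 to 10883412 counts and the 4 C57BL/6 libraries 9596850 to 11946239. Libraries of 1 strain correlated at 0.982 to 0.994 on the log2 scale over 10682 genes, and libraries of different strains at 0.923 to 0.967. Within STR/ort the libraries fell into pairs, replicates 1 and 2 at 0.994 and replicates 3 and 4 at 0.991, against 0.982 to 0.984 across the pairs, so counts are also given without either pair where that moved them by more than 1.5 times. Nothing in the labels says how the pairs differed, or whether each library came from a different mouse. The 0-day p values rest on the spread between all 12 0-day libraries of the 3 strains, each taken as independent.

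Of 17310 genes, 2391 (13.8%) were called different between the strains, 1354 (7.82%) higher and 1037 (5.99%) lower in STR/ort. A gene counted as called at a fold change over 1.5 and an adjusted p under 0.05 (edgeR quasi-likelihood test, Benjamini-Hochberg method over all genes). The difference exceeded 2-fold in 585 of the higher and 440 of the lower genes, and 4-fold in 180 and 141. In 30.7% of all genes the 4 libraries of a strain lay entirely above or below the 4 of the other. The call gave 2976 genes without STR/ort replicates 1 and 2, and 1703 without replicates 3 and 4. The number of calls fell to 1409 and 669 when 1 and 2 unwanted factors were estimated from 25 housekeeping genes by RUVg, the kind of correction that the study names without the number of factors.

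**Figure D1:**
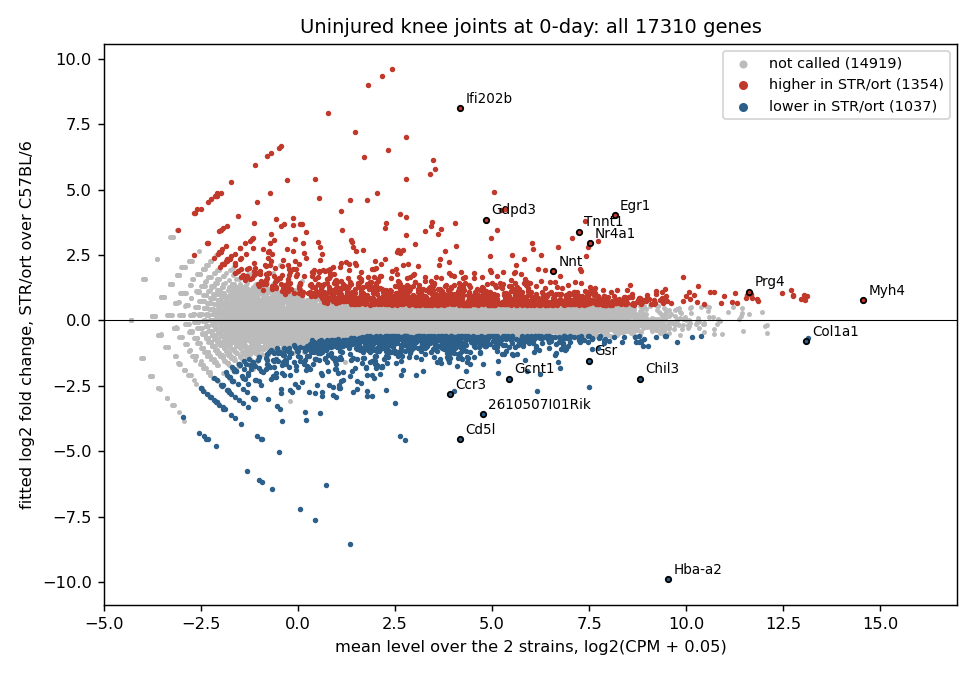
Each point is a gene, with its mean level over both strains on the x axis, as log2(CPM + 0.05), and its fitted log2 fold change of STR/ort over C57BL/6 on the y axis (4 libraries per strain). Red and blue points are the 1354 genes called higher and the 1037 called lower in STR/ort. Named genes are circled, from Hba-a2 at -9.898 to Ifi202b at 8.12.

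Among the higher genes with the smallest adjusted p, Ifi202b, an interferon-inducible DNA-binding protein of the Ifi200 family, was measured at 37.3, 35.3, 36.2 and 34.6 CPM in the 4 STR/ort libraries and at 0.0905, 0.0804, 0 and 0.295 CPM in the 4 C57BL/6 libraries (log2 fold change 8.12 ± 0.24 SE, adjusted p = 2.65e-14). Rnase2a, an eosinophil-associated ribonuclease, was at 23.97, 24.5, 19.4 and 19.6 CPM in STR/ort and 0.0905, 0.241, 0.457 and 0.393 CPM in C57BL/6 (log2 fold change 6.13 ± 0.22 SE, adjusted p = 4.23e-13). Gdpd3, a lysophospholipase D, was at 51.04, 53.1, 52.9 and 58.2 CPM against 2.99, 3.94, 3.29 and 4.32 CPM (log2 fold change 3.84 ± 0.12 SE, adjusted p = 3.15e-14). None of the STR/ort libraries overlapped the C57BL/6 libraries for these 3 genes, and the value of Ifi202b was 8.94 without C57BL/6 replicate 4. Gbp2b, an interferon-inducible GTPase, Ceacam2, an adhesion molecule, C130026I21Rik and Gm5779 were also among the 15 higher genes with the smallest adjusted p, at log2 fold changes of 6.53, 5.7999, 3.49 and 5.403.

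Of the lower genes with the smallest adjusted p, 2610507I01Rik fell from 54.1, 50.3, 45.7 and 49.5 CPM in the C57BL/6 libraries to 3.202, 4.86, 4.699 and 4.54 CPM in the STR/ort libraries (log2 fold change -3.57 ± 0.12 SE, adjusted p = 1.18e-13). Gcnt1, which builds the branched core of mucin-type glycans, was at 67.2, 73.8, 74.1 and 66.8 CPM in C57BL/6 and 16.6, 14.2, 15.8 and 14.97 CPM in STR/ort (log2 fold change -2.23 ± 0.08 SE, adjusted p = 3.4e-13). Ccr3, the eotaxin receptor of eosinophils, was at 25.2, 25.2, 30.04 and 23.9 CPM in C57BL/6 and 3.78, 3.44, 3.34 and 4.66 CPM in STR/ort (log2 fold change -2.82 ± 0.12 SE, adjusted p = 5.56e-12). The C57BL/6 libraries lay above all STR/ort libraries for each of them. Ifitm6, Apobec3 (a restriction factor against retroviruses), Ccdc92b, Hjurp (the chaperone of the centromeric histone), Iqgap2 and Cyth4 had log2 fold changes of -2.68, -2.04, -4.56, -1.27, -1.25 and -1.52.

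Of 32 antioxidant genes 4 were higher and 2 lower in STR/ort (7.82% of all genes were higher and 5.99% lower), and 1 was higher and 3 lower with 2 RUVg factors. Nnt, the mitochondrial transhydrogenase that supplies NADPH and of which C57BL/6J mice are known to carry a deletion, was at 133, 153, 150.5 and 167 CPM in STR/ort and 39.3, 40.4, 40.9 and 38.2 CPM in C57BL/6 (log2 fold change 1.89 ± 0.08 SE, adjusted p = 7.14e-12). Gsr, which reduces oxidised glutathione, was lower in STR/ort, at 88.02, 90.2, 100.1 and 94.7 CPM against 287, 247, 259 and 268 CPM (log2 fold change -1.55 ± 0.07 SE, adjusted p = 7.42e-12). For both genes the libraries of a strain were close together and the strains did not overlap. Sod2, the mitochondrial superoxide dismutase, and Gsta4, a glutathione transferase for lipid peroxidation products, rose by 0.73 and 1.18, and Hmox1, which breaks down heme, fell by 1.202 on the log2 scale.

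Counts were 0 in all 4 libraries of a strain for 12 genes that reached a mean of at least 1 CPM in the other strain. Of these, 8 were seen only in STR/ort and 4 only in C57BL/6 at 0-day. BC049730 averaged 8.77 CPM over the STR/ort libraries, at least 130-fold above the floor of 3 counts over the 4 C57BL/6 libraries, 4931408C20Rik 6.87 CPM (at least 102-fold) and Ccnb1ip1, a meiotic crossover factor, 3.30 CPM (at least 49.1-fold). Masp2, a serine protease of the lectin pathway of complement, Gm5801, Sycp1 and Plpp4 had means between 1.05 and 1.37 CPM, and the eighth gene was Ucp1, described with the fat genes. In the other direction Skint3 averaged 4.98 CPM over the C57BL/6 libraries, at least 60.5-fold above the floor in STR/ort, and Foxd4, Rbm44 and Stfa1 had 2.58, 1.96 and 1.14 CPM. These floors cover counting error only. The later libraries of both strains, injured joints included, differed in how far they repeated this. In the 29 later STR/ort libraries Skint3 had 0 counts in 26 and at most 1 count in the rest, whereas Rbm44 had 0 counts in 16 and up to 5 in the others. In the 30 later C57BL/6 libraries Plpp4 had 0 counts in 29 and at most 1 in the other, whereas Masp2 had 0 counts in 13 (at most 3 in the rest) and Ucp1 reached 13 counts, with 0 in 22 of these libraries and also in 9 of the 29 later STR/ort libraries. The reads of all strains were aligned to mm10, which is a C57BL/6J genome, and how far sequence differences of STR/ort lower or shift its counts was not tested.

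Skeletal muscle genes were higher in STR/ort as a group. Fast fibres use the Myh4 myosin and slow fibres Myh7, each with its own troponins. Of 19 fast muscle genes 15 were called higher and 0 lower in STR/ort (background 7.82% of all genes higher, 5.99% lower), with a median log2 fold change of 0.82, against -0.06 over all genes. Of 15 slow muscle genes 14 were called higher and 0 lower, with a median of 1.84. Together the fast muscle genes took 5.12% to 8.25% of the scaled counts in C57BL/6 and 11.4% to 13.3% in STR/ort, without overlap.

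Log2 fold changes ranged from 0.16 to 1.09 over the fast and from 0.40 to 3.73 over the slow muscle genes. The lists were not tested against each other. Myh4, the myosin of the fastest fibres, was at 31850.4, 30239, 29141 and 31846 CPM in STR/ort and 21659, 17740.1, 17483 and 13716 CPM in C57BL/6 (log2 fold change 0.76 ± 0.13 SE, adjusted p = 0.000161). Myh7, the slow myosin, was at 170.1, 209.7, 251 and 331 CPM in STR/ort and 23.9, 20.3, 40.4 and 21.99 CPM in C57BL/6 (log2 fold change 3.14 ± 0.35 SE, adjusted p = 2.33e-06). Every STR/ort library was above every C57BL/6 library for both, by 1.698-fold in the fit for the fast and 8.79-fold for the slow myosin. The slow troponins Tnnt1, Tnni1 and Tnnc1 were higher by 3.39, 3.73 and 3.47 on the log2 scale, and replicate 4 of STR/ort had the highest level of Tnnt1 (178, 247, 202 and 478 CPM, against 23.6, 21.6, 34.8 and 22.6 CPM in C57BL/6) and of Tnni1 (14.2, 24.3, 23.9 and 59.3 CPM, against 1.99, 1.85, 2.83 and 2.16 CPM). Titin (Ttn), the spring of the sarcomere, rose by 1.15, and skeletal actin (Acta1) by 0.97.

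Of 19 genes of muscle regeneration and denervation, 9 were called higher and 1 lower in STR/ort, the lower share being near the background (7.82% higher, 5.99% lower). The lower count was 2 without STR/ort replicates 1 and 2, and 0 without STR/ort replicate 4 or both replicates 3 and 4. Myog, which drives the differentiation of muscle precursors, was at 1.84, 3.199, 6.16 and 6.75 CPM in STR/ort and 2.08, 0.482, 0.73 and 0.491 CPM in C57BL/6 (log2 fold change 2.18 ± 0.43 SE, adjusted p = 0.000701), with C57BL/6 replicate 1 above STR/ort replicate 1 and a value of 2.90 without that C57BL/6 library. The ubiquitin ligases of muscle atrophy, Fbxo32 and Trim63, rose by 1.13 and 0.98. Without STR/ort replicates 1 and 2 the fast and slow muscle lists held 15 and 14 called genes, and without replicates 3 and 4 both held 14. With 2 RUVg factors 0 of the 19 fast and 4 of the 15 slow muscle genes were called, at medians of 0.19 and 0.91, and of the regeneration and denervation list 1 gene was higher and 0 lower with either 1 or 2 factors.

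Mitochondrial genes were higher in STR/ort as well. Of 42 genes of the respiratory chain 25 were called higher and 0 lower in STR/ort (median 0.61, background 7.82% higher and 5.99% lower), and of 22 genes of fatty acid oxidation 15 were higher and 1 lower (median 0.67). Acadm, the medium-chain acyl-CoA dehydrogenase, was at 426, 457, 517 and 569 CPM in STR/ort and 232, 222, 236 and 172 CPM in C57BL/6 (log2 fold change 1.15 ± 0.11 SE, adjusted p = 3.37e-07), and the groups did not overlap. Cox5b, a subunit of cytochrome c oxidase, was at 439, 503, 1381 and 1299 CPM in STR/ort and 374, 407, 595 and 298 CPM in C57BL/6 (log2 fold change 1.07 ± 0.28 SE, adjusted p = 0.00642). Its log2 fold change was 0.14 without STR/ort replicates 3 and 4. For Cox5b, STR/ort replicates 3 and 4 were far above the other STR/ort libraries, and replicates 1 and 2 lay within the range of C57BL/6. The lower gene was Cpt1a, the form of carnitine palmitoyltransferase of liver and many other tissues (-0.61), whose call was lost without C57BL/6 replicate 3 (-0.49), STR/ort replicate 3 (-0.52) or STR/ort replicate 4 (-0.51). The mitochondrial ribosomal RNA mt-Rnr2 rose by 1.05. The respiratory chain list had 11 and the fatty acid oxidation list 9 higher genes without STR/ort replicates 3 and 4, with 1 RUVg factor 8 and 5, and with 2 factors 0 and 4. Scaling by housekeeping genes gave 12 higher respiratory chain genes. Leaving out C57BL/6 replicate 4 or STR/ort replicate 4 gave 13 and 16 higher respiratory chain genes. The summed fast muscle level moved with these lists, and its part in their differences was not tested.

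Fat genes divided within STR/ort. Of 24 genes of white and brown fat, 5 were called higher and 2 lower, the lower share being near the background (7.82% higher, 5.99% lower). Ucp1, the uncoupling protein that marks brown and beige fat cells, was at 0, 0.118, 24.3 and 17.9 CPM in the STR/ort libraries and had 0 counts in all C57BL/6 libraries. Cidea, a lipid droplet protein of the same cells, was at 1.75, 2.49, 26.6 and 15.2 CPM in STR/ort and 0.272, 0.804, 0.822 and 0.687 CPM in C57BL/6 (log2 fold change 4.08 ± 0.73 SE, adjusted p = 0.000294). STR/ort replicates 3 and 4 carried nearly all of the Ucp1 counts and most of the Cidea counts, and without replicate 3 the log2 fold change of Cidea was 3.21. Of white fat hormones, Lep (leptin) was at 30.2, 25.9, 36.8 and 30.1 CPM in STR/ort and 19.8, 8.52, 8.22 and 12.9 CPM in C57BL/6 (log2 fold change 1.28 ± 0.22 SE, adjusted p = 0.000237), while Cfd (adipsin) was at 50.6, 41.9, 46.8 and 52.6 CPM against 188, 129, 124 and 225 CPM (log2 fold change -1.83 ± 0.15 SE, adjusted p = 4.66e-08). Retn (resistin) was lower as well (-1.75), and Adipoq (adiponectin) was not called, at -0.33. Leptin was thus higher in every STR/ort library, and adipsin lower in every one, than in any C57BL/6 library. Without STR/ort replicates 3 and 4 the list gave 2 higher and 5 lower genes, and without replicates 1 and 2 it gave 9 and 2. It gave 1 higher and 4 lower with 1 RUVg factor, and 0 and 2 with 2 factors.

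**Figure D2:**
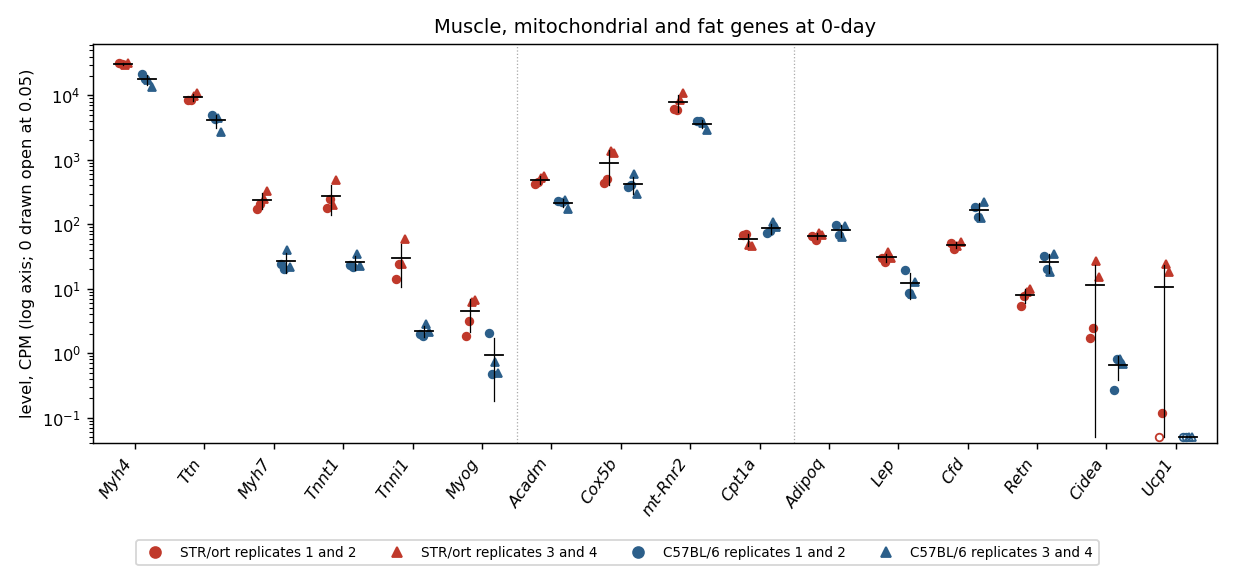
Levels in CPM on a log axis of 16 muscle (left), mitochondrial (middle) and fat genes (right) in the 4 STR/ort (red) and 4 C57BL/6 libraries (blue) at 0-day. Each symbol is a library, circles are replicates 1 and 2 and triangles replicates 3 and 4, the horizontal line is the mean and the vertical line 1 SD either side, and 0 is drawn open at 0.05. The STR/ort symbols lie above the C57BL/6 symbols for Myh4, Ttn, Myh7, Tnnt1 and Tnni1, and for Cidea and Ucp1 the triangles stand apart from the circles.

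Immediate early genes, the transcription factors and feedback regulators that cells switch on within minutes of a stimulus, were higher in STR/ort as a group. Of 28 such genes 25 were called higher and 0 lower (7.82% of all genes were higher and 5.99% lower), with a median log2 fold change of 1.95. Egr2, a zinc-finger factor, was at 86.6, 89.2, 58.1 and 50.6 CPM in STR/ort and 3.62, 4.34, 4.29 and 2.36 CPM in C57BL/6 (log2 fold change 4.23 ± 0.20 SE, adjusted p = 1.68e-11). Fos, a subunit of the AP-1 factor, was at 517, 435, 155 and 155 CPM in STR/ort and 17.02, 20.7, 31.9 and 18.7 CPM in C57BL/6 (log2 fold change 3.803 ± 0.33 SE, adjusted p = 1.05e-07). Every STR/ort library was above every C57BL/6 library, and for Fos replicates 1 and 2 held about 3 times the level of replicates 3 and 4.

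The orphan nuclear receptor Nr4a1 was at 383, 366, 287 and 264 CPM in STR/ort and 38.7, 46.5, 44.1 and 32.9 CPM in C57BL/6 (log2 fold change 2.96 ± 0.13 SE, adjusted p = 7.5e-12). The AP-1 subunits Fosb, Junb and Jun were higher by 4.28, 2.73 and 1.97 on the log2 scale, Egr1 and Egr3 by 4.03 and 3.31, the stress factor Atf3 by 3.16 and the phosphatase Dusp1, which switches off MAP kinases, by 2.36. The 3 members that were not called included Myc (0.22, adjusted p = 0.0672) and Fosl1 (1.11, adjusted p = 0.335), the second at 0 to 0.313 CPM. Without STR/ort replicates 1 and 2, or without replicates 3 and 4, 24 of the genes were called, and with 2 RUVg factors 23, at a median of 2.42. In MRL/MpJ, the means of Fos, Egr1 and Nr4a1 were 14.4, 27.6 and 57.9 CPM.

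The promoters of genes of this group, which rose together, are shown because immediate early genes are known to be switched on through short elements near their start. The 250 bases before the start, from RefSeq (build GRCm38.p6), were found for 21 of the 28 immediate early genes and searched on both strands for the cAMP response element TGACGTCA, for its half-site TGACG, which the full element contains, and for the CArG box of serum response factor. A gene counted as holding an element if any of its listed starts did, so genes with more starts had more chances of a match. The half-site was in 14 of the 21 genes (66.7%), against 27.3% of 12794 measured genes with a promoter, the full element in 3 (14.3%, against 2.73%) and the CArG box in 2 (9.52%, against 1.44%). The half-sites and CArG boxes are in capitals in the promoters of Fos (chr12:85473640-85473889, plus strand), Egr2 (chr10:67537619-67537868, plus strand, at 1 of its 5 listed starts) and Nr4a1 (chr15:101266596-101266845, plus strand), each printed 5′ to 3′ up to the base before the start.
Fos: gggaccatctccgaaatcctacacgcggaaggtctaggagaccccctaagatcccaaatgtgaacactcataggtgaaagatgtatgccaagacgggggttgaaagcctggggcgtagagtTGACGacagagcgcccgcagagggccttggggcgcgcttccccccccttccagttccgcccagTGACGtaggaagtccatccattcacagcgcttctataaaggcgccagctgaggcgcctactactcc
Egr2: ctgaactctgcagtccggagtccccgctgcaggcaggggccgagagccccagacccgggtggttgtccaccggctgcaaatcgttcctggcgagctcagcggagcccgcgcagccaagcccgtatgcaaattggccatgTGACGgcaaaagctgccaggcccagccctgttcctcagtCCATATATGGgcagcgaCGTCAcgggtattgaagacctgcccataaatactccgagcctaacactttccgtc
Nr4a1: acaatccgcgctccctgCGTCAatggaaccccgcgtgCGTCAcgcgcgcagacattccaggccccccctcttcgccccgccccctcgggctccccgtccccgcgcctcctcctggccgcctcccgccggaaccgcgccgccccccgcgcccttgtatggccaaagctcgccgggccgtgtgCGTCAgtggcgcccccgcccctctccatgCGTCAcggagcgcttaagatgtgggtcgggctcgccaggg
Fos held 2 half-sites, Nr4a1 4, and this start of Egr2 held 2 with a CArG box between them. The Egr2 promoter at chr10:67535249-67535498 held neither element, and that at chr10:67537316-67537565 held a CArG box without a half-site. A match to these letters is a description of the sequence and not of binding.

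Heat shock chaperones, which refold proteins under stress, were higher in STR/ort for 9 of 15 genes and lower for 0 (median 0.76, background 7.82% higher and 5.99% lower). Hspa1a, an inducible Hsp70, was at 14.7, 9.83, 14.2 and 12.8 CPM in STR/ort and 0.453, 1.21, 0.274 and 1.28 CPM in C57BL/6 (log2 fold change 3.94 ± 0.29 SE, adjusted p = 9.64e-09), and its neighbour Hspa1b at 18.3, 15.5, 26.6 and 19.02 CPM and 2.44, 1.53, 0.822 and 1.47 CPM (log2 fold change 3.62 ± 0.23 SE, adjusted p = 1.35e-09). Both genes are near-identical copies, so how reads were split between them is uncertain. Dnajb1, the Hsp40 partner of Hsp70, was at 102, 113, 96.9 and 89.2 CPM against 36.8, 38.998, 44.2 and 38.4 CPM (log2 fold change 1.303 ± 0.09 SE, adjusted p = 7.33e-09). Hspa5, the chaperone of the endoplasmic reticulum, was not called, at 0.23 (adjusted p = 0.0569). Calls numbered 11 without STR/ort replicates 1 and 2, 8 without replicates 3 and 4, and 6 with 2 RUVg factors.

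The heat shock element was searched as GAANNTTC on both strands, at any listed start of a gene. It was in 6 of the 11 chaperone genes with a promoter (54.5%), against 6.21% of all measured genes with a promoter. It is in capitals in the promoters of Hspa1a (chr17:34972157-34972406, minus strand) and Hspa1b (chr17:34959239-34959488, minus strand), which are shown because these copies moved most, and which differ at 3 of 250 bases. In both it begins 104 bases before the start.
Hspa1a: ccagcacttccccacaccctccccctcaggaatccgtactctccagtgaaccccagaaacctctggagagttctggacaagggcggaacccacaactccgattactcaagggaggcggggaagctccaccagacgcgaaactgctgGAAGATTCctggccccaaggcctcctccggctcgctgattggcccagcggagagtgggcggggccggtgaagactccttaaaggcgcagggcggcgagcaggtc
Hspa1b: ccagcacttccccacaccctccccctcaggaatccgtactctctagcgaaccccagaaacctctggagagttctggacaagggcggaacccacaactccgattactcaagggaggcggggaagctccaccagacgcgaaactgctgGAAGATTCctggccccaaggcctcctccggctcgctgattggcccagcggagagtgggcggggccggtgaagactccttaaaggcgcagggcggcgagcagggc

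Genes that respond to glucocorticoids, the stress hormones of the adrenal gland, were higher for 10 of 14 genes and lower for 0 (median 0.72, background 7.82% higher and 5.99% lower). Errfi1, a feedback inhibitor of the EGF receptor, was at 379, 356, 413 and 361 CPM in STR/ort and 42.4, 53.9, 42.1 and 39.4 CPM in C57BL/6 (log2 fold change 3.04 ± 0.12 SE, adjusted p = 9.75e-13). Tsc22d3, the leucine zipper induced by glucocorticoids, was at 161, 150.3, 207 and 208 CPM and 78.5, 67.7, 74.7 and 52.3 CPM (log2 fold change 1.37 ± 0.12 SE, adjusted p = 1.02e-07). The 4 STR/ort libraries lay above the 4 C57BL/6 libraries for both genes. Ddit4, an inhibitor of mTORC1, rose by 1.805, whereas Fkbp5, a co-chaperone of the glucocorticoid receptor, was not called, at -0.28. The acute-phase gene Saa3 was at 4.46, 0.948, 0.313 and 0.736 CPM in STR/ort and 0.181, 0.241, 0 and 0.295 CPM in C57BL/6, with replicate 1 of STR/ort standing apart. Its log2 fold change of 3.102 became 1.75 without that library and was no longer called (edgeR adjusted p = 0.0556). The list had 11 higher genes without STR/ort replicates 1 and 2, 6 without replicates 3 and 4, and 5 with 2 RUVg factors.

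Of 18 circadian clock genes 6 were higher and 1 lower, the lower share being near the background (7.82% higher, 5.99% lower). With 1 RUVg factor 3 were higher and 1 lower, and with 2 factors 1 and 0. Per1, a clock repressor that glucocorticoids also induce, was at 87.8, 80.1, 101 and 84.3 CPM in STR/ort and 39.8, 26.9, 35.2 and 23.96 CPM in C57BL/6 (log2 fold change 1.45 ± 0.12 SE, adjusted p = 7.1e-08), and the lower gene was Arntl, the clock activator, at 10.5, 10.3, 14.8 and 13.99 CPM against 18.5, 20.9, 26.2 and 27.8 CPM (log2 fold change -0.95 ± 0.14 SE, adjusted p = 3.76e-05). The hour at which the joints of each strain were taken is not given in the sources used here, and it cannot be told apart from strain.

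**Figure D3:**
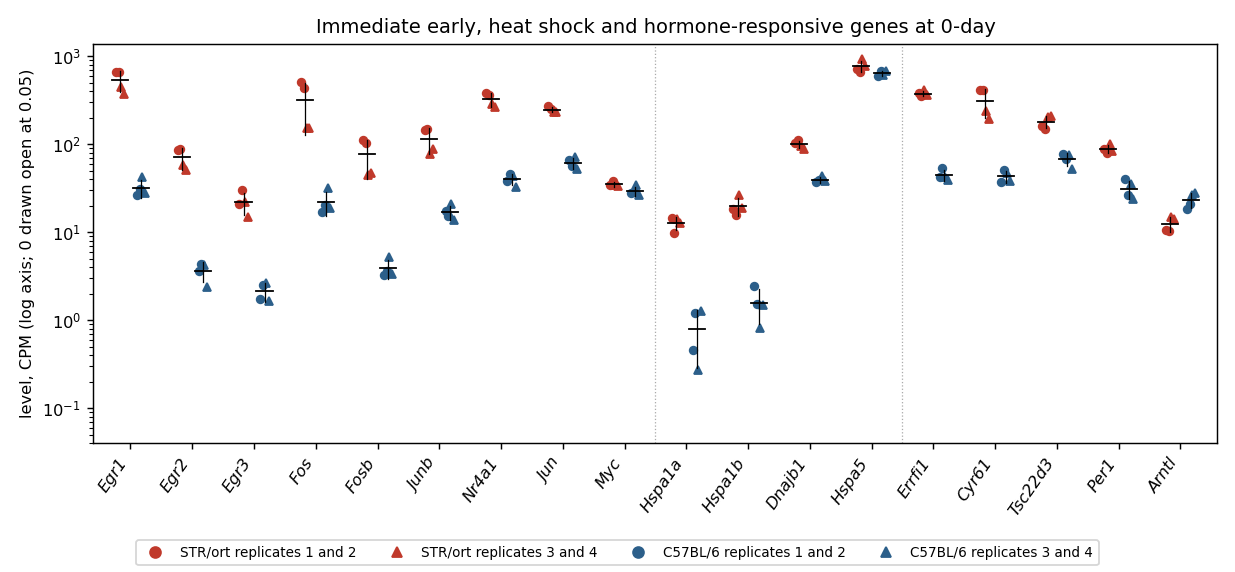
Levels in CPM on a log axis of 9 immediate early genes (left), 4 chaperones (middle) and 5 hormone-responsive, matricellular and clock genes (right) at 0-day, in 4 STR/ort (red) and 4 C57BL/6 libraries (blue). Circles are replicates 1 and 2, triangles replicates 3 and 4, horizontal lines means and vertical lines 1 SD either side. The STR/ort symbols lie above the C57BL/6 symbols for every gene plotted except Myc, Hspa5 and Arntl.

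The matricellular gene Cyr61, which also counts among the immediate early genes, was at 410.2, 415, 239.9 and 193 CPM in STR/ort and 37.02, 51.5, 46.8 and 38.8 CPM in C57BL/6 (log2 fold change 2.81 ± 0.20 SE, adjusted p = 5.51e-09). It was higher in each STR/ort library than in any C57BL/6 library.

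Of 34 chemokines 5 were called higher and 5 lower in STR/ort, beside 7.82% and 5.99% of all genes, with a median of -0.07, and with 2 RUVg factors 3 were higher and 2 lower. Without STR/ort replicates 1 and 2 the list had 3 higher genes, and without replicates 3 and 4 it had 3 lower. Cxcl1, which attracts neutrophils, was at 37.5, 19.4, 14.2 and 11.5 CPM in STR/ort and 0.634, 0.402, 0.183 and 0.393 CPM in C57BL/6 (log2 fold change 5.61 ± 0.46 SE, adjusted p = 2.36e-07). Ccl2, which attracts monocytes, was at 5.63, 6.75, 3.45 and 3.44 CPM and 0.815, 1.13, 0.274 and 0.687 CPM (log2 fold change 2.65 ± 0.41 SE, adjusted p = 7.68e-05). The other higher chemokines were Ccl7, Cxcl2 and Cxcl5. The lower ones were Ccl19 (-2.77), a chemokine of lymphoid tissue, Ccl5 (-1.62), a product of T cells, Cxcl10, which interferon induces, Ccl6 and Xcl1. Cxcl10, at -0.76, was not called without C57BL/6 replicate 1 (-0.68) or 2 (-0.70) or without STR/ort replicate 1 (-0.71) or 3 (-0.63). Cxcl12, the marrow retention factor, was not called (-0.42).

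Of 17 genes of the interleukin-6 family and its receptors 3 were higher and 0 lower, and of 14 of the interleukin-1 family 2 were higher and 3 lower. Il6 itself was low, at 2.62, 1.66, 0.209 and 0.982 CPM in STR/ort and 0.362, 0.241, 0.274 and 0.491 CPM in C57BL/6 (log2 fold change 1.96 ± 0.60 SE, adjusted p = 0.0166). Its call was lost without STR/ort replicate 1 (1.38) or C57BL/6 replicate 2 (1.82). Socs3, the feedback inhibitor of this pathway, was at 32.2, 31.99, 15.3 and 16.9 CPM and 12.04, 11.7, 10.4 and 8.54 CPM (log2 fold change 1.14 ± 0.22 SE, adjusted p = 0.000683). Il1b rose by 0.94 and Il1a by 1.11, while the decoy receptor Il1r2 was lower, at 4.56, 4.38, 4.59 and 4.54 CPM against 10.5, 9.49, 9.68 and 10.9 CPM (log2 fold change -1.1995 ± 0.16 SE, adjusted p = 1.74e-05), and so was the inflammasome sensor Nlrp3 (-0.94). The inducible cyclooxygenase Ptgs2 rose by 2.13, and Alox5, the enzyme of leukotriene synthesis, fell by 0.87 on the log2 scale. Of 20 genes of TNF and NF-kB feedback 2 were higher, Nfkbiz (0.98) and Nfkbia, and 1 lower, shares near the 7.82% and 5.99% of all genes. The lower call was lost without C57BL/6 replicate 2 or 3, without STR/ort replicate 3 or 4, with RLE factors and with DESeq2, and the higher count was 1 without STR/ort replicate 4. Without both STR/ort replicates 3 and 4 it was 1 as well, and 0 were lower. The interleukin-6 list had 1 higher gene without STR/ort replicates 1 and 2, 2 without replicates 3 and 4, and 0 calls with 2 RUVg factors.

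Of 26 cartilage matrix genes 12 were called lower in STR/ort and 1 higher (5.99% of all genes were lower and 7.82% higher), with a median of -0.61. In 4 of the 26 all STR/ort libraries lay below all C57BL/6 libraries, as they did in 15.1% of all genes. The summed level of the list overlapped, at 8570 to 12775 CPM in STR/ort and 7156 to 14312 CPM in C57BL/6. Acan, the load-bearing proteoglycan, was at 295, 313, 422 and 275 CPM in STR/ort and 288, 585, 461 and 644 CPM in C57BL/6 (log2 fold change -0.64 ± 0.18 SE, adjusted p = 0.0108), with C57BL/6 replicate 1 within the range of STR/ort. Acan was no longer past the fold limit without C57BL/6 replicate 2 (-0.55) or 4 (-0.49) or without STR/ort replicate 4 (-0.57). Col2a1, the main collagen of cartilage, was not called, at 1821, 2281, 3476 and 2389 CPM and 1359, 3783, 3415 and 4309.7 CPM (log2 fold change -0.41 ± 0.27 SE, adjusted p = 0.25). Ucma, a small matrix protein of the upper growth plate, was at 10.9, 12.4, 10.1 and 6.38 CPM and 12.4, 29.6, 21.001 and 39.7 CPM (log2 fold change -1.396 ± 0.27 SE, adjusted p = 0.000496), and Matn3, Cytl1 and Chad, also of cartilage, had log2 fold changes of -0.98, -0.92 and -0.82. In C57BL/6, replicate 1 had the lowest level of Acan, Col2a1, Ucma and Matn3. Sox9, the factor that controls these genes in chondrocytes, was not called (0.36, adjusted p = 0.0604).

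The cartilage difference depended on the scaling. With 1 RUVg factor 4 of the 26 genes were lower and 1 higher, with 2 factors 3 were higher and 0 lower, at a median of 0.83, and with a TMM scaling that left out the muscle genes, chosen after the data were seen, 10 were lower and 1 higher. Without STR/ort replicates 1 and 2 the list had 7 lower genes, and without replicates 3 and 4 it had 9. When single libraries were left out the count of lower genes ranged from 5 without C57BL/6 replicate 4 to 18 without C57BL/6 replicate 1, and was 7 without C57BL/6 replicate 2 or STR/ort replicate 4 and 14 without STR/ort replicate 3.

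The higher gene of the cartilage list was Prg4, which encodes lubricin, the boundary lubricant made by the synovial lining and the surface zone of cartilage. It was at 4297, 2498, 4481 and 6101 CPM in STR/ort and 2160.3, 1658, 1485 and 2591 CPM in C57BL/6 (log2 fold change 1.099 ± 0.21 SE, adjusted p = 0.000486), and C57BL/6 replicate 4 lay above STR/ort replicate 2. Has1, a hyaluronan synthase of the same lining, was at 35.4, 18.5, 16.8 and 24.9 CPM and 4.25, 2.81, 2.74 and 5.01 CPM (log2 fold change 2.67 ± 0.23 SE, adjusted p = 9.38e-08). For Has1 all STR/ort libraries were above all C57BL/6 libraries. Of the 13 genes of synovial lining and hyaluronan, these 2 were called higher (3 without C57BL/6 replicate 4 or without STR/ort replicates 3 and 4) and 2 lower (1 without C57BL/6 replicate 2 or 4, without STR/ort replicate 4 or without its replicates 3 and 4). Of all genes 7.82% were higher and 5.99% lower, and the median log2 fold change of the list was 0.11.

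Of 22 osteoblast and osteocyte genes 7 were lower and 2 higher (median -0.21), the higher share being near the background (7.82% higher, 5.99% lower), and of 17 osteoclast genes 5 were lower and 0 higher (median -0.43). Bglap, osteocalcin, was at 379, 456, 296 and 294 CPM in STR/ort and 670.4, 639, 577 and 839 CPM in C57BL/6 (log2 fold change -0.97 ± 0.13 SE, adjusted p = 1.93e-05), and its neighbour Bglap2 had a log2 fold change of -1.603. Osteocalcin genes are near-identical copies, and reads may be split between them. Col1a1 was at 6034, 7572, 6889.5 and 5817 CPM and 9009.7, 11208, 10736 and 13194 CPM (log2 fold change -0.79 ± 0.13 SE, adjusted p = 0.000141). The STR/ort libraries lay below the C57BL/6 libraries for both. Dmp1, an osteocyte gene of mineralisation, and Tnfsf11, which encodes RANKL, were the higher genes (0.66 and 0.91). Dmp1 was not past the fold limit without C57BL/6 replicate 1 (0.54) or without STR/ort replicate 2 (0.58) or 3 (0.57). By contrast, Tnfrsf11a, the receptor of RANKL on osteoclasts, was lower (-0.69). With 2 RUVg factors 6 osteoblast genes were higher and 2 lower, and 1 osteoclast gene was lower. The osteoclast count was 2 without C57BL/6 replicate 2, 3 without STR/ort replicate 4, 7 without STR/ort replicates 1 and 2 and 4 without replicates 3 and 4.

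Of 16 matrix metalloproteinases 4 were lower and 1 higher (5.99% of all genes were lower and 7.82% higher). The higher call was lost without C57BL/6 replicate 2, without STR/ort replicate 3, with housekeeping scaling and with 2 RUVg factors, 2 genes were higher without STR/ort replicate 2 or without both replicates 1 and 2, 0 without replicates 3 and 4, and 2 were lower with 2 RUVg factors. Mmp9, which osteoclasts and neutrophils make, was at 331, 379, 322 and 290.3 CPM in STR/ort and 576, 708, 665 and 557 CPM in C57BL/6 (log2 fold change -0.96 ± 0.10 SE, adjusted p = 5.75e-07). Of 18 ADAMTS proteases 4 were lower and 1 higher, the higher being Adamts1, at 126, 115, 113 and 103 CPM and 43.5, 42.6, 32.5 and 38.9 CPM (log2 fold change 1.49 ± 0.11 SE, adjusted p = 1.37e-08). The lower count was 2 without STR/ort replicate 4, with RLE factors, with DESeq2 or with the scaling that left out muscle genes, 1 with 1 RUVg factor or without STR/ort replicates 3 and 4, and 0 with 2 factors. The higher count was 2 without C57BL/6 replicate 4 or without STR/ort replicates 1 and 2. The aggrecanases Adamts4 and Adamts5 were not called, at 0.11 and 0.28. The microfibril gene Fbn2 was lower (-1.38), and the crosslinking enzyme Lox fell by 0.82 on the log2 scale.

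Beside 7.82% of all genes higher and 5.99% lower, 0 of 48 Wnt pathway genes were higher and 2 lower. The Wnt calls were 1 higher and 1 lower without C57BL/6 replicate 4, 0 and 1 without STR/ort replicate 4, 1 and 2 without STR/ort replicate 1 or 2, 2 and 3 without both, and 3 and 0 with 2 RUVg factors. Of 44 genes of the TGF-beta and BMP pathway 3 were higher and 5 lower, against 3 and 1 with 2 RUVg factors and 1 and 3 with 1. The higher count was 5 without STR/ort replicate 1, 6 without both replicates 1 and 2, and 2 without replicates 3 and 4. Grem1, an antagonist of BMPs, was at 2.91, 3.91, 3.03 and 2.95 CPM in STR/ort and 4.53, 6.83, 9.496 and 7.66 CPM in C57BL/6 (log2 fold change -1.195 ± 0.20 SE, adjusted p = 0.00019), and Chrd, another, fell by 0.91 on the log2 scale. H19, an imprinted noncoding RNA beside Igf2, was at 1104, 1189.7, 1826 and 1792 CPM and 558, 408, 437 and 409 CPM (log2 fold change 1.67 ± 0.15 SE, adjusted p = 1.42e-07). The forkhead factor Foxc2 rose by 1.88.

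Of 24 erythroid genes 9 were lower (6 without STR/ort replicate 3) and 1 higher (background 7.82% higher, 5.99% lower). The higher gene was Mt2, a metallothionein found in many cells, and the higher count was 0 without STR/ort replicates 3 and 4. Hba-a2, an alpha globin gene, was at 1.94, 2.61, 0.835 and 0.982 CPM in STR/ort and 1019, 1473, 1973 and 1492 CPM in C57BL/6 (log2 fold change -9.898 ± 0.27 SE, adjusted p = 1.41e-14), and at 3.71 CPM on average in MRL/MpJ. The beta globin Hbb-bs was not called, at 54.3, 57.9, 147 and 109 CPM and 89.7, 80.2, 122 and 80.5 CPM (log2 fold change -0.06 ± 0.24 SE, adjusted p = 0.874). Alpha globin is encoded by near-identical copies, so its value is uncertain. Among genes of red cell precursors, Alas2, the first enzyme of heme synthesis, was at 439.8, 357, 326 and 364 CPM and 579, 555, 673 and 569 CPM (log2 fold change -0.71 ± 0.10 SE, adjusted p = 2.47e-05), and Tspo2, of the same precursors, had a log2 fold change of -2.696.

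Macrophage and monocyte genes were lower for 13 of 30 genes and higher for 1 (median -0.49, background 5.99% lower and 7.82% higher). Ccr2, the receptor that brings monocytes out of marrow, was at 58.03, 60.3, 45.1 and 47.5 CPM in STR/ort and 163, 151, 153 and 152 CPM in C57BL/6 (log2 fold change -1.59 ± 0.09 SE, adjusted p = 1.74e-10). Cd163, the scavenger receptor for haemoglobin, was at 29.4, 28.9, 31.5 and 27.4 CPM and 76.1, 65.2, 67.7 and 69.3 CPM (log2 fold change -1.28 ± 0.09 SE, adjusted p = 7.83e-09). No STR/ort library reached the lowest C57BL/6 library for either gene. Cd5l, a secreted macrophage protein, had a log2 fold change of -4.53, C1qc, a chain of complement C1q, of -1.38 and the integrin Itgad of -1.92, whereas Vsig4, a complement receptor of resident macrophages, was higher (1.08). Csf1r, the receptor that macrophages need to survive, did not pass the fold limit, at -0.42 (adjusted p = 0.000351). The list gave 14 lower genes without either pair of STR/ort libraries, 12 with 2 RUVg factors and 13 with the scaling that left out muscle genes.

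Of 25 marrow neutrophil genes 5 were lower (8 without STR/ort replicates 1 and 2) and 0 higher (background 7.82% higher, 5.99% lower). Chil3, a chitinase-like protein of neutrophil precursors and macrophages, was at 181, 175, 140.1 and 149 CPM and 774, 724, 655 and 799.8 CPM (log2 fold change -2.23 ± 0.10 SE, adjusted p = 5.56e-12), while the granule gene Ngp was not called, at 4489, 4125, 4022 and 3987 CPM and 5149, 4247, 4234 and 4509.6 CPM (log2 fold change -0.16 ± 0.10 SE, adjusted p = 0.207). Of 31 T cell and NK cell genes 12 were lower and 0 higher (median -0.41), among them the receptor chains Cd3g (-1.12) and Cd3d (-1.78) and the co-receptor Cd8a (-0.85). The levels of these genes were low, and the summed level of the list was 129 to 158 CPM in STR/ort and 169 to 176 CPM in C57BL/6. The T cell and NK cell list had 8 lower genes without STR/ort replicates 3 and 4 or without C57BL/6 replicate 2, and 2 with 2 RUVg factors. It had 1 or 2 higher genes without either pair of STR/ort libraries, and 1 without C57BL/6 replicate 3 or 4 or STR/ort replicate 3. Of 23 B cell genes 3 were lower and 0 higher. The lower count was 6 and 5 without STR/ort replicates 1 and 2 in turn and 7 without both, and without replicates 3 and 4 the list had 1 lower and 2 higher genes.

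Of 16 mast cell genes 3 were higher and 5 lower in STR/ort (background 7.82% higher, 5.99% lower), the lower count being 2 with 1 RUVg factor or without STR/ort replicates 3 and 4, and 0 with 2 factors. Mcpt2, a protease typical of mucosal mast cells, was at 9.51, 7.94, 7.73 and 5.89 CPM in STR/ort and 0.272, 0.402, 0.183 and 0.0982 CPM in C57BL/6 (log2 fold change 4.88 ± 0.31 SE, adjusted p = 1.53e-09), and Mcpt4, typical of connective tissue mast cells, at 3.11, 2.84, 2.61 and 1.84 CPM and 7.15, 5.23, 5.11 and 5.498 CPM (log2 fold change -1.17 ± 0.21 SE, adjusted p = 0.000351). For Mcpt2 the STR/ort libraries were the higher, for Mcpt4 the C57BL/6 libraries, without overlap. Mcpt8, a protease of basophils, rose by 0.92, and Cpa3 and Tpsb2, also of mast cells, were lower (-0.72 and -1.06).

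Of 37 genes of the MHC and antigen presentation 9 were lower and 3 higher (5.99% and 7.82% of all genes). The class II genes H2-Aa and Cd74 had log2 fold changes of -0.78 and -0.69, and the nonclassical class I genes H2-M3 and H2-T22 of -1.398 and -1.44. The list had 13 lower genes without STR/ort replicates 1 and 2, 2 without replicates 3 and 4, 6 without replicate 3 and 2 with 1 RUVg factor. MHC genes vary between strains and share reads with close copies, so their counts are uncertain. Of 28 complement genes 6 were lower and 2 higher, with C7, of the membrane attack complex, at 10.2, 11.02, 13.1 and 6.99 CPM and 33.4, 28.5, 24.2 and 36.9 CPM (log2 fold change -1.604 ± 0.21 SE, adjusted p = 1.22e-05) and Cd59a, which blocks that complex, higher by 1.46. Of 26 Toll-like receptors and adaptors 5 were lower and 2 higher (1 without C57BL/6 replicate 2 or 3 or STR/ort replicate 1, or without STR/ort replicates 1 and 2), with Tlr1, which senses bacterial lipopeptides together with Tlr2, at 1.84, 0.711, 0.418 and 0.614 CPM and 5.25, 6.43, 4.84 and 6.97 CPM (log2 fold change -2.68 ± 0.31 SE, adjusted p = 3.62e-06, -3.36 without STR/ort replicate 1) and the endotoxin co-receptor Cd14 higher by 0.99.

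Interferon-stimulated genes, which cells switch on against viruses, were lower for 12 of 50 genes and higher for 3 (median -0.38), the higher share being below the background (7.82% higher, 5.99% lower). Oasl2, of the oligoadenylate synthase family, was at 15.1, 15.8, 14.8 and 17.4 CPM in STR/ort and 30.96, 34.9, 32.1 and 43.6 CPM in C57BL/6 (log2 fold change -1.205 ± 0.11 SE, adjusted p = 1.57e-07). Mx1, Rsad2 and Isg15 had log2 fold changes of -0.94, -0.82 and -0.69, and Ifi44 was higher, at 22.4, 24.8, 20.2 and 24.5 CPM against 6.16, 5.95, 4.38 and 9.03 CPM (log2 fold change 1.81 ± 0.16 SE, adjusted p = 9.24e-08), as was Ifitm1 (1.02). The list had 21 lower genes without STR/ort replicates 1 and 2, 9 without replicates 3 and 4, and 5 with 2 RUVg factors.

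The Ifi200 family, a cluster of DNA sensors and related genes on chromosome 1, had 9 of 12 measured members lower and 1, Ifi202b, higher (background 7.82% higher, 5.99% lower). Ifi204 was at 15.5, 12.7, 8.67 and 9.204 CPM in STR/ort and 30.1, 30.1, 23.6 and 34.7 CPM in C57BL/6 (log2 fold change -1.39 ± 0.16 SE, adjusted p = 3.45e-06), Mnda at 3.11, 1.303, 2.09 and 3.07 CPM and 8.69, 7.32, 5.66 and 7.56 CPM (log2 fold change -1.64 ± 0.22 SE, adjusted p = 2.02e-05) and Pydc4 at 0.194, 0.118, 0.104 and 0.245 CPM and 1.99, 1.53, 1.73 and 2.65 CPM (log2 fold change -3.51 ± 0.41 SE, adjusted p = 4.1e-06). All STR/ort libraries were below all C57BL/6 libraries for these 3 genes. The family is made of close copies that vary between strains, and reads may be split between them. Pydc4, Pyhin1, Pydc3, AI607873 and Ifi204 lay next to each other (chr1:173566280-173767069) as a run of 5 lower genes. With 2 RUVg factors 3 members were lower and 1 higher.

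**Figure D4:**
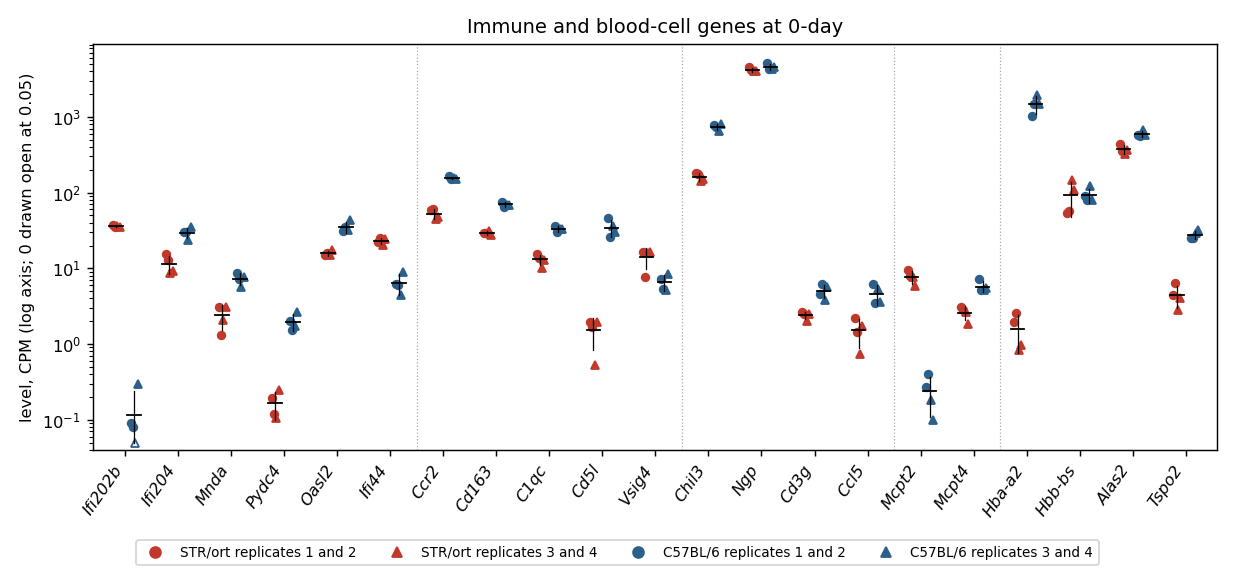
Levels in CPM on a log axis of 21 interferon-related, macrophage, granulocyte and T cell, mast cell and erythroid genes at 0-day, in this order from left to right, in 4 STR/ort (red) and 4 C57BL/6 libraries (blue). Circles are replicates 1 and 2, triangles replicates 3 and 4, horizontal lines means, vertical lines 1 SD either side, and 0 is drawn open at 0.05. Ifi202b, Ifi44, Mcpt2 and most Vsig4 symbols lie higher in STR/ort, Hbb-bs overlaps, and the other genes except Ngp lie lower in STR/ort.

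The longest run of neighbouring called genes of the same direction held 8 genes higher in STR/ort at chr2:176798179-178035859, namely Gm14295, Zfp970, Gm14403, Gm14322, Gm14325, Gm14327, Gm14326 and Zfp971. These genes are or resemble zinc-finger genes with close copies, so that reads may be shared between them. Zfp970 was at 39.98, 42.3, 44.8 and 46.5 CPM in STR/ort and 24.2, 21.7, 23.2 and 23.5 CPM in C57BL/6 (log2 fold change 0.87 ± 0.07 SE, adjusted p = 8.28e-08), without overlap. Across the autosomes and chromosome X the share of called genes ranged from 10.0% of 850 genes on chromosome 17 to 17.8% of 1032 genes on chromosome 1, and was 10.4% of 569 on chromosome X.

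The same strains were compared in uninjured contralateral joints of other mice, in a fit of all 55 uninjured libraries. There 1887 genes (10.9%) were called at 1-day, 5.94% of all genes higher and 4.96% lower. The 1-week joints gave 3964 (22.9%), 13.6% higher and 9.32% lower, and those of 2-weeks 1650 (9.53%), 4.74% higher and 4.79% lower. Of the 1354 genes higher at 0-day, 434 (32.1%) were called higher at 1-day, 403 (29.8%) at 1-week and 411 (30.4%) at 2-weeks, and 24, 305 and 1 were called lower. Of the 1037 genes lower at 0-day, 427 (41.2%), 435 (41.9%) and 444 (42.8%) were called lower again, and 7, 113 and 8 were called higher. As a share of the later calls, the genes found again made up 42.2%, 17.1% and 50.1% of the genes higher at the later times and 49.8%, 27.0% and 53.5% of those lower. At all 4 times 512 genes were called in the same direction, 238 higher and 274 lower.

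The groups of genes differed in how far they kept their 0-day difference. Immediate early genes had a median log2 fold change of 1.95 at 0-day and of 0.68, 0.44 and 0.23 at the later times in order. Fast muscle genes had a median of 0.82 at 0-day and of -0.47, -0.79 and 0.07 later, and cartilage matrix genes of -0.61 at 0-day and 0.12, 1.26 and -0.02 later. The Ifi200 family had medians of -0.96 at 0-day and -0.93, -0.63 and -1.10 later, and interferon-stimulated genes of -0.38 at 0-day and -0.37, -0.61 and -0.74. Erythroid genes had -0.33 at 0-day and -0.55, -0.71 and -0.60 later. Over all genes the medians were -0.06, 0.01, 0.02 and -0.01.

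**Figure D5:**
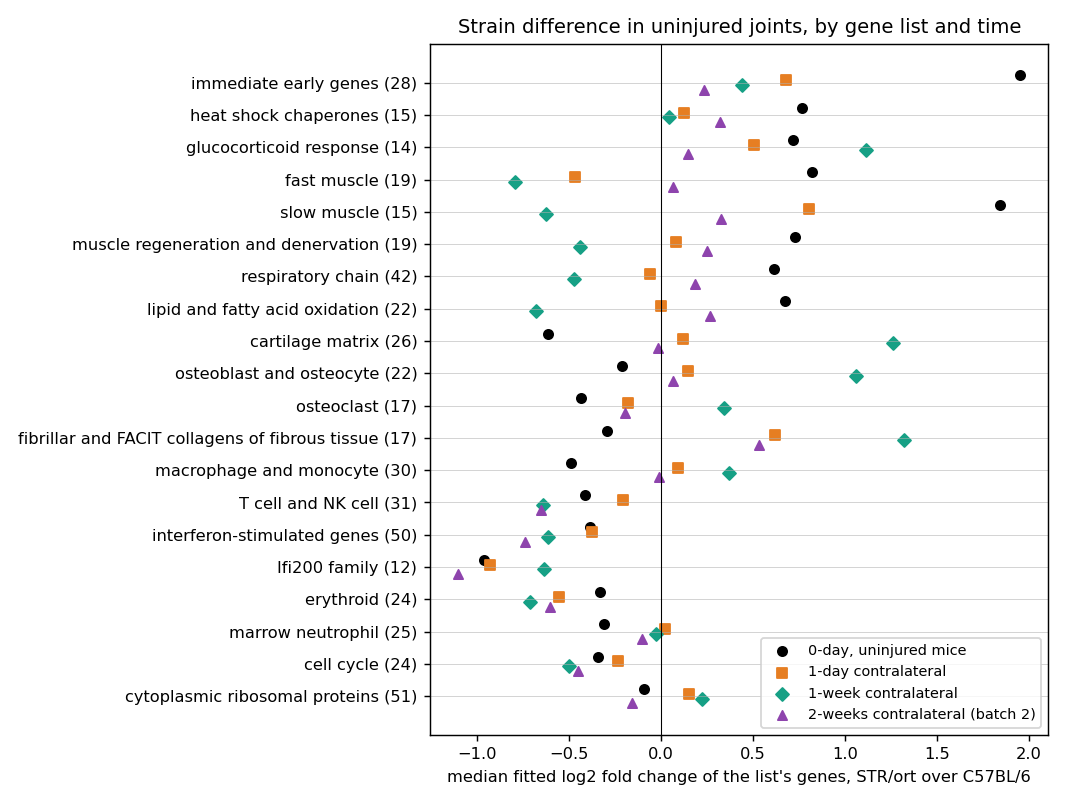
Median fitted log2 fold change of STR/ort over C57BL/6 (x axis) over the measured genes of 20 lists (y axis, number of genes in parentheses) at 0-day (black circles) and in contralateral joints at 1-day (orange squares), 1-week (green diamonds) and 2-weeks (purple triangles, batch 2). Medians of the muscle, mitochondrial and cartilage lists at 0-day and 1-week lie on opposite sides of 0, while those of the Ifi200, interferon, erythroid and T cell lists lie below 0 at every time.

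The difference between the strain differences was tested gene by gene as the interaction of strain and time. Against 1-day it was called for 1695 genes (9.79%), more positive at 0-day in 5.78% of all genes and more negative in 4.02%. The count against 1-week was 3818 (22.1%; 9.36% and 12.7%) and against 2-weeks 992 (5.73%; 2.85% and 2.88%), the last being 614 without STR/ort replicate 4. Of the 28 immediate early genes 19 had a more positive difference at 0-day than at 1-day. Egr2 had log2 fold changes of 4.23 at 0-day and 0.66, 1.37 and 0.499 at the later times, and its 0-day difference exceeded that of 1-day by 3.57 (adjusted p = 7.12e-12). Fos, by contrast, was still higher by 2.56 at 1-day and its difference there was not called against 0-day. Dnajb1 went from 1.303 to -0.05 (difference 1.35, adjusted p = 5.63e-08), and Errfi1 from 3.04 to 1.19 (difference 1.86, adjusted p = 5.63e-08).

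All 19 fast muscle and all 26 cartilage matrix genes had a called interaction against 1-week, the muscle genes more positive and the cartilage genes more negative at 0-day. Myh7 was at 3.14 at 0-day and at -0.63 at 1-week on the log2 scale (difference 3.77, adjusted p = 0.000157). Acan had a log2 fold change of -0.64 at 0-day and of 1.33 at 1-week (difference -1.97, adjusted p = 8.58e-08). Prg4 was higher at all times, by 1.099 at 0-day and by 2.04, 3.45 and 1.77 later, and its difference grew by 1-week (0-day minus 1-week -2.34, adjusted p = 2.67e-08). Fbn2 went from -1.38 at 0-day to 0.303 at 1-day (difference -1.68, adjusted p = 2.67e-06). In the 1-week contralateral libraries the summed fast muscle level was 42031 to 79324 CPM in STR/ort and 64476 to 112200 CPM in C57BL/6, with overlap, and the part of this difference in that of other genes was not tested.

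Log2 fold changes at every time are given for 7 genes, Ifi202b (8.12 at 0-day, 8.22, 8.54 and 6.58 later), Gdpd3 (3.84, 3.65, 3.91 and 3.66), Mcpt2 (4.88, 6.005, 6.59 and 5.28), Nnt (1.89, 1.55, 1.04 and 1.81), Gsr (-1.55, -1.22, -1.57 and -1.501), Cd5l (-4.53, -3.89, -5.36 and -4.304) and Hba-a2 (-9.898, -7.42, -9.42 and -7.95). Each of them was called in the same direction at all 4 times. The mean of MRL/MpJ at 0-day lay nearer to C57BL/6 than to STR/ort for 44.8% of the 2391 called genes, with 45.5% of the higher and 44.0% of the lower ones.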

How the data were processed

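Poly(A)+ RNA of whole knee joints was sequenced, and the authors deposited a table of read counts per RefSeq gene (TopHat2 2.0.11 and featureCounts, build mm10, per the labels and the study's methods; the strand setting is not given in the sources used here). The counts were used as deposited, and 0 columns with no sample were present. After 3 repeated rows were dropped, 17310 genes remained, and the study's filter, at least 2 counts in 5 libraries, removed 0 of them. In 24 gene names a spreadsheet had put a date in place of the symbol, and these were not named.

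The 0-day test was edgeR 4.0.16 (quasi-likelihood F test, TMM factors, R 4.3.3, limma 3.58.1) on the 12 0-day libraries of 3 strains with 1 mean per strain, Benjamini-Hochberg adjustment over all genes, adjusted p below 0.05 and a fold change above 1.5. Every adjusted p in the text is from this tool. Later times were fitted over all 55 uninjured libraries, with strain and time in 1 model. SE is the log2 fold change divided by the square root of F. CPM used TMM factors over all 100 libraries. DESeq2 1.42.0, RLE factors, RUVg, housekeeping scaling, other filters, the replicate block and left-out libraries were tried as alternatives. The test was checked on simulated counts.

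The 52 gene lists and the members were chosen with earlier results of these data known. Genes were named if they belonged to a list, had 1 of the 15 smallest adjusted p values per direction, were at 0 in a strain, were among the 10 most abundant called genes, lay in the longest run, or had 1 of the 5 smallest p values per direction for the change between 0-day and 1-day. The run of Ifi200 genes and the genes followed at all times were chosen after their values were seen.

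The depth of 8805390 to 11946239 counts per library limits what can be shown for genes of few counts. Among 12 pairs of libraries within a strain 0 were identical, and chi-square per degree of freedom was 2.99 to 16.6. Same-numbered libraries of both strains correlated at -0.251 to 0.139 after the mean of each strain was removed. With 4 such values this cannot show whether libraries of a number shared a day or preparation.
Some items are not reported here.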

Additional observations from a re-analysis of the deposited data

Results flagged for a closer look

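In 18 of 399 groups of 4 libraries (4.51%) a library lay far from the other 3 by Dixon's ratio, where chance gives about 1 in 20 groups. In C57BL/6 replicate 1 these were Cd3d (10.3 CPM), Il1b (27.2 CPM), Ifitm1 (16.02 CPM), Cxcl5 (2.44 CPM), Myog (2.08 CPM), the summed interleukin-1 family (322.0 CPM) and the summed cell cycle genes (4278 CPM). In C57BL/6 replicate 3 they were Tnnt1 (34.8 CPM) and Dusp1 (22.1 CPM), and in replicate 4 Cytl1 (188.7 CPM) and the summed interferon-stimulated genes (2077 CPM). In STR/ort they were Saa3 in replicate 1 (4.46 CPM), Myc (38.4 CPM), Vsig4 (7.70 CPM) and Grem1 (3.91 CPM) in replicate 2, and Acta1 (13224 CPM), Lox (72.2 CPM) and the summed fast muscle genes (133301 CPM) in replicate 4.

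The strain difference itself differed between 0-day and contralateral joints for 1695 genes against 1-day, 3818 against 1-week and 992 against 2-weeks, by the interaction term in edgeR. Among the genes described above, the 0-day minus 1-day value was 3.57 for Egr2 (adjusted p = 7.12e-12), 1.86 for Errfi1 (5.63e-08), 1.35 for Dnajb1 (5.63e-08) and -1.68 for Fbn2 (2.67e-06). The 0-day minus 1-week value was 3.77 for Myh7 (adjusted p = 0.000157), -1.97 for Acan (8.58e-08) and -2.345 for Prg4 (2.67e-08).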

How the results depend on the processing

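The 2391 calls (1354 higher, 1037 lower) became 1409 (771, 638) with 1 RUVg factor and 669 (292, 377) with 2, and calls among list members went from 346 to 148 with 2 factors. Scaling by 25 housekeeping genes gave 2462 calls, 1132 higher and 1330 lower (46.0% higher, against 56.6% with TMM), with the median of all genes at -0.13. With 2 RUVg factors 43.6% of calls were higher. When single libraries were omitted, the test gave 2006 to 2538 calls (1148 to 1447 higher, 858 to 1100 lower) and 614 to 1101 interaction calls against 2-weeks. DESeq2 gave 2229 calls, RLE factors 2384, and filterByExpr 2142. The 12 genes seen in a single strain became 6 with a mean of at least 2 CPM and 31 when up to 2 counts stood for absence.

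Values that changed sign with 2 RUVg factors were Myog (-0.0908), Cox5b (-0.17), Acan (0.60), Col2a1 (0.88), Ucma (0.78), Matn3 (0.84), Cytl1 (0.0549) and Comp (0.91, adjusted p = 0.022). With 1 factor Cox5b was at -0.0830 and Comp at 0.0318. Comp ranged from -0.33 to 0.0325 when single libraries were left out, above 0 without C57BL/6 replicate 4. Hbb-bs ranged from -0.38 to 0.13, above 0 without replicate 3 of C57BL/6 (0.10) or either of the first STR/ort replicates, 1 (0.13) and 2 (0.10), and was at 0.41 without both. The cause was not tested.

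Without STR/ort replicates 1 and 2, an alternative chosen after seeing the data, the calls of Socs3 (0.55), Il6 (0.69), Ccl7 (1.06), Cxcl5 (0.76), Matn3 (-0.83), Saa3, Acan, Cxcl10 and Tpsb2 were lost. Without replicates 3 and 4, also chosen then, those of Sod2 (0.51), Cd74 (-0.45), H2-Aa (-0.46), Cpa3 (-0.48), Cox5b, Cpt1a, Ucp1, Cxcl10 and Tpsb2 were lost.

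The replicate block gave 2161 calls (1386 higher, 775 lower). Of 4 C57BL/6 libraries, 1 correlated best with the STR/ort library of its own number. Whether same-numbered libraries shared a day or preparation was not tested. Under the block Cpt1a, Acan and Cxcl10 were not called.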

Other observations

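Of 24 genes of hypoxia and glycolysis 5 were called higher in STR/ort (Egln1, Egln3, Aldoa, Bnip3 and Ankrd37) and 0 lower, beside 7.82% and 5.99% of all genes, with 2 higher without C57BL/6 replicate 4, 3 without STR/ort replicate 4, 2 without STR/ort replicates 3 and 4, 2 with 1 RUVg factor and 0 with 2. Their summed level was 11494 to 13171 CPM in STR/ort and 7370 to 9988 CPM in C57BL/6. Of 24 cell cycle genes 0 were higher and 3 lower (Mki67, Kif11 and Rrm2), or 1 without STR/ort replicate 3, 6 without STR/ort replicates 1 and 2, and 0 without replicates 3 and 4 or with 1 RUVg factor, at a median of -0.34. Of 25 genes of blood vessels 3 were higher (Vegfa, Vegfb and Dll4) and 1 lower (Aplnr), shares near those of all genes, and 0 and 1 with 2 RUVg factors. The lower count was 2 without C57BL/6 replicate 2 or STR/ort replicate 1, or without STR/ort replicates 1 and 2. Their summed level was 1046 to 1202 CPM in STR/ort and 927 to 978 CPM in C57BL/6.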
